A study of Mus musculus with 10 samples.

Results

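The heat shock chaperone genes described here are 10 protein-coding genes chosen by name, Hspa1a, Hspa1b, Hspa8, Hsph1, Dnajb1, Bag3, Hspb1, Hsp90aa1, Hspd1 and Hspe1. They were found by symbol among the 22024 gene identifiers of the deposited count table, and all 10 were among the 15191 genes with enough reads to be tested. PolyA RNA was sequenced from lumbar cord of 10 females killed at 3 months of age, with 1 library per mouse. The M337V mice (n = 5, animals 1, 2, 3, 7 and 9) carried a human TARDBP genomic clone with the M337V mutation, which is linked to amyotrophic lateral sclerosis, on a bacterial artificial chromosome exchanged into the Rosa26 locus. The WT mice (n = 2, animals 8 and 10) carried the same clone at the same locus without the mutation, and the NTg mice (n = 3, animals 4, 5 and 6) were nontransgenic C57BL/6; controls are described as littermates of the same age. Each transgenic line descended from targeted embryonic stem cells and had been backcrossed to C57BL/6J, and how many stem cell clones founded a line is not stated. The labels do not say whether the animals sequenced had 1 or 2 copies of the transgene, and every mouse kept its own Tardbp gene. The product of either gene, TDP-43, binds RNA in the nucleus and can also enter stress granules, and the title of the series names stress granule dynamics and motor function as its subject.

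Library totals ran from 18724888 to 21041474 counts. Human TARDBP, which has an identifier of its own in the table, held 2192 to 2723 counts in the M337V libraries, 2335 and 2425 in the WT libraries, and 2415, 1 and 4 counts in NTg 4, 5 and 6. The library labelled NTg 4 therefore went against its label, and the differences of the 10 genes from NTg are given with and without it. WT 8 stood apart in its Hox genes: summed over 6 lumbosacral Hox genes, it held 12.5 CPM (read counts scaled to library size), against 207 CPM in WT 10, 33.8 to 163 CPM in M337V and 168 to 218 CPM in NTg. The markers of motor neurons (204 to 368 CPM over 6 genes), neurons, astrocytes, oligodendrocytes and microglia were present in every library. Nothing in the labels says whether the mice of a group shared a litter, dissection day or sequencing run. The mice were separate animals, so the p-values set group differences against the spread between animals of a group. A litter, day or run shared by a whole group would enter its difference, and the p-values do not allow for it.

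Heat shock proteins are chaperones that bind unfolded or misfolded proteins and either refold them or pass them on for degradation. When unfolded protein accumulates, the transcription factor HSF1 forms trimers and binds heat shock elements, which are inverted repeats of the letters GAA, in front of the inducible genes. HSP70 proteins do the folding work with J-domain proteins that deliver clients and exchange factors that reset them, HSP90 matures signalling proteins and holds HSF1 inactive, small heat shock proteins trap unfolding proteins, and a separate chaperonin folds proteins inside mitochondria. Motor neurons are known for a weak heat shock response, and mutations of HSPB1 and BAG3 cause inherited diseases of nerve or muscle in people.

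The sequences below show 2 features of the loci, the near identity of Hspa1a and Hspa1b and the element shared by Hspd1 and Hspe1. They are RefSeq windows of GRCm38.p6 that run from 250 bases before to 50 bases after the annotated start site, in which capitals mark the letters GAANNTTC or TTCNNGAA, a pair of inverted heat shock units (searched on both strands).
Hspa1a (chr17:34972107-34972406, minus strand): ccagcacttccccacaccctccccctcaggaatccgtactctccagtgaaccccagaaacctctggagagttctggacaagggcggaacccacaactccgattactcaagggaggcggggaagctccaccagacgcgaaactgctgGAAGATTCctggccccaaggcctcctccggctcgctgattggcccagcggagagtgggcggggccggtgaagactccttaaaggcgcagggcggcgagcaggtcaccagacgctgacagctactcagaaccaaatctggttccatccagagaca
Hspa1b (chr17:34959189-34959488, minus strand): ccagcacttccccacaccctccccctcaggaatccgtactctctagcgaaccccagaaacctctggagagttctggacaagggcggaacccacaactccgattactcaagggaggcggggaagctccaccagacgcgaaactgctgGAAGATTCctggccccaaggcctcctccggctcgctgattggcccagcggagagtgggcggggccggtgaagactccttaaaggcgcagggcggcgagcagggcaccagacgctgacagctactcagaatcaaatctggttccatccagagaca
Hspe1 (chr1:55087898-55088197, plus strand): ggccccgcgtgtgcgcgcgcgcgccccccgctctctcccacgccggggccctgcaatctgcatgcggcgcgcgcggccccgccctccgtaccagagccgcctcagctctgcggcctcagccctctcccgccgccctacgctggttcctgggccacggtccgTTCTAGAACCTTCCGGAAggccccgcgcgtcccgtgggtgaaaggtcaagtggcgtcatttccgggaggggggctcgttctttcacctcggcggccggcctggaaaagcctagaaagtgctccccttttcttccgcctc
The Hspa1a and Hspa1b windows were equal at 296 of 300 bases. Counted from 1 at the 5′ end of the window, they differed by C44T, T47C, T249G and C276T, with the base of Hspa1a first. Each holds 1 pair of inverted units, which begins at position -104 from the start site. The Hspe1 window holds an unbroken run of 18 bases, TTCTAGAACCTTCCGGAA (chr1:55088059-55088076), that has 2 overlapping matches to the three-unit element GAANNTTCNNGAA, starting at positions -89 and -84. The same 18 bases, read on the other strand as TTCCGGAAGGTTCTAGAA, lie in a window of Hspd1, which is transcribed the other way from the same locus. RefSeq windows were found for 8 of the 10 genes, with 11 windows in all, since a gene with 2 start sites has 2 windows. A three-unit match lay in 4 of the 11 windows, 1 of Hspd1, 1 of Hspe1 and 2 of Hsph1, where it lay after the start site; over all 32851 windows of the same length 0.603% had one. A pair of inverted units lay in 8 of the 11 windows, against 15.1% of all windows. The 11 are not independent, as the 2 Hsph1 windows overlap and Hspd1 and Hspe1 share their element. Hspa8 and Hsp90aa1 were the members without a window.

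Near-identical copies also limit what the counts can say. Of the windows of 100 bases, the length of 1 read, along the longest coding transcript, 48.6% in Hspa1a and 49.9% in Hspa1b also occurred in a transcript of another gene, nearly all of them in each other. The share was 62.8% in Hspa8, 47.5% in Hsp90aa1, 42.7% in Hspb1, 26.9% in Hspd1 and 20.4% in Hspe1, and there the transcript with most matches was a pseudogene or an unnamed gene model outside the table. Hsph1, Dnajb1 and Bag3 shared 0 windows. How reads that match several places were counted is not stated in the labels, so the levels of the 7 genes with shared windows are uncertain, and those of Hspa1a and Hspa1b are also given as their sum.

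The 10 genes differed widely in level. Per kilobase of annotated exon, and averaged over all 10 libraries, Hspa8 stood at 334 ± 43.2 CPM (SD) and Hsp90aa1 at 316 ± 35.1 CPM, and these 2 genes overlapped each other between libraries. Hspd1 followed at 80.4 ± 4.93 CPM per kilobase, below every library of the first 2 genes. Hsph1 (40.5 ± 3.20) and Hspe1 (36.2 ± 2.84) overlapped each other, as did Bag3 (14.5 ± 1.43) with Dnajb1 (13.4 ± 1.97) and Dnajb1 with Hspb1 (12.004 ± 2.01 CPM per kilobase). Hspa1a (1.04 ± 0.267) and Hspa1b (0.709 ± 0.284 CPM per kilobase) were lowest and overlapped each other. The cord therefore held far more RNA of the constitutive HSP70 gene Hspa8 than of the stress-inducible pair, at the level these counts assign to each copy. The length used was the union of all annotated exons, 4301 bases in Hspa8 and 7266 in Hsph1. Their longest coding transcripts have 2394 and 3802 bases, so levels per kilobase, and which genes overlap, depend on the length chosen. All levels in the rest of the text are CPM without division by length.

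**Figure D1:**
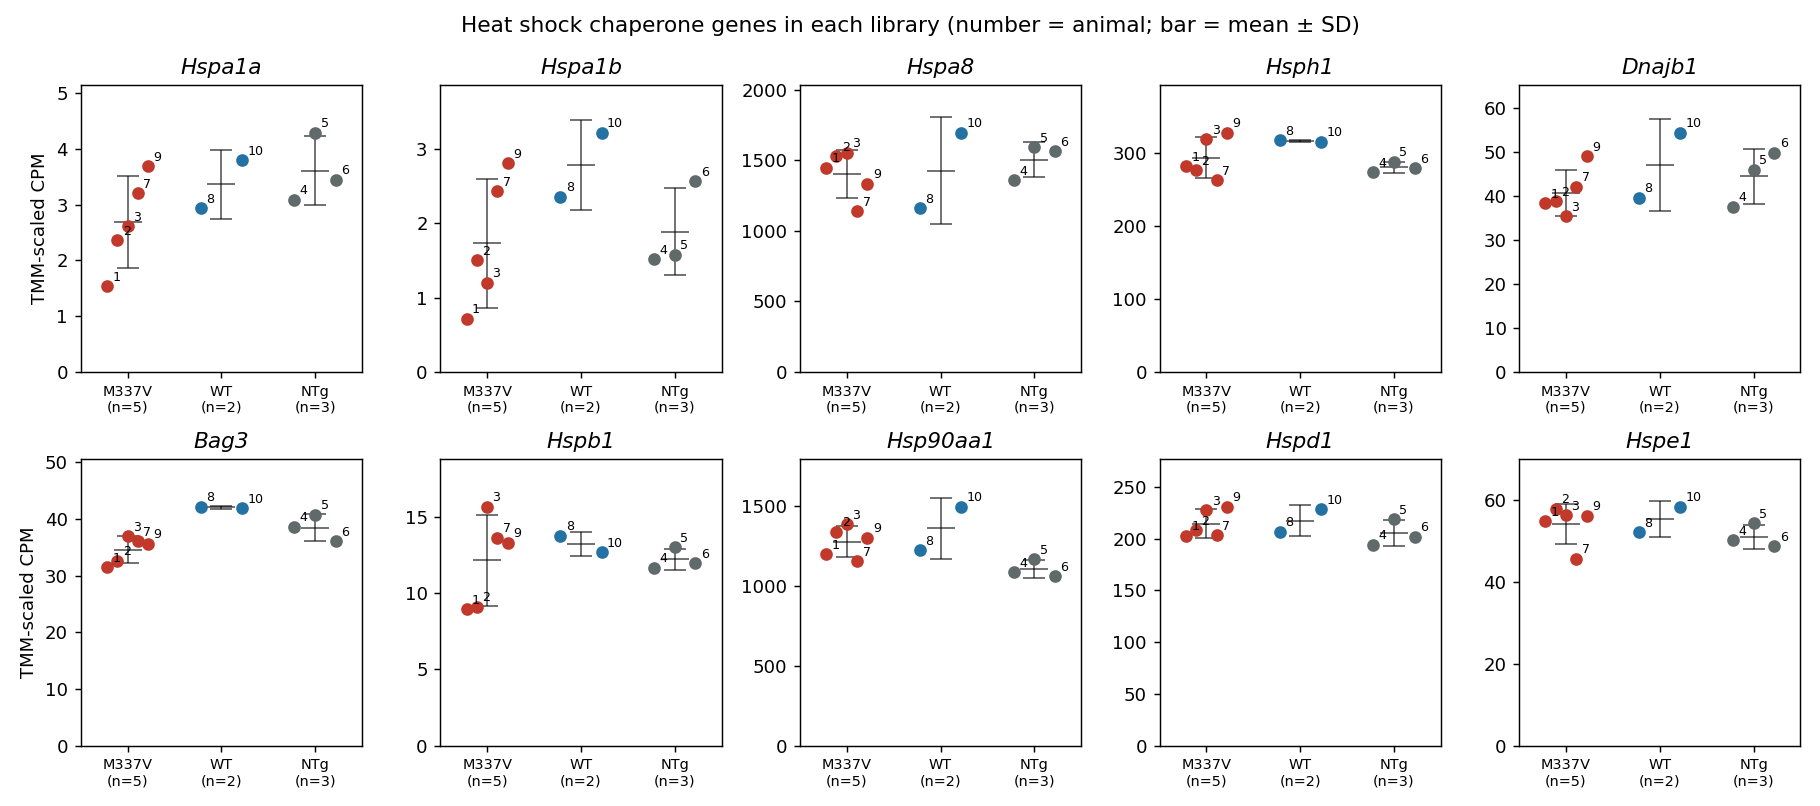
TMM-scaled CPM (vertical axes, from 0, a different scale for each gene) of the 10 heat shock chaperone genes in each library of M337V (n = 5), WT (n = 2) and NTg (n = 3); points are libraries with the animal number, and bars are the mean ± SD. Groups overlap in most panels; in Bag3 both WT libraries, at 42.2 and 41.9 CPM, lie above all M337V libraries and all NTg libraries.

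Hspa1a (ENSMUSG00000091971, chromosome 17, 34969190 to 34972156, GRCm38) and Hspa1b (ENSMUSG00000090877, chromosome 17, 34956436 to 34959238) encode the inducible cytosolic HSP70, the classical read-out of a heat shock response. Hspa1a had 30, 44, 50, 62 and 71 counts in M337V 1, 2, 3, 7 and 9, 56 and 78 counts in WT 8 and 10, and 63, 87 and 74 counts in NTg 4, 5 and 6. The mean CPM was 2.68 ± 0.824 over M337V mice (SD, n = 5), 3.36 ± 0.615 over WT mice (SD, n = 2) and 3.61 ± 0.616 over NTg mice (SD, n = 3). M337V 1, 2 and 3 had the 3 lowest levels of all libraries, while M337V 7 and 9 lay inside the range of NTg. Hspa1b had 14, 28, 23, 47 and 54 counts in M337V 1, 2, 3, 7 and 9, 45 and 66 counts in WT 8 and 10, and 31, 32 and 55 counts in NTg 4, 5 and 6. Mean levels were 1.73 ± 0.867 CPM for M337V mice, 2.78 ± 0.609 CPM for WT mice and 1.89 ± 0.586 CPM for NTg mice. Here too M337V 1, 2 and 3 were the lowest, at 0.716, 1.502 and 1.20 CPM, and they lay below the 2.43 and 2.81 CPM of M337V 7 and 9. The groups overlapped in every comparison of both genes.

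Because reads of the 2 copies may have been divided unevenly, their counts were also added and tested as 1 row. Summed levels were 4.41 ± 1.67 CPM for M337V mice, 6.15 ± 1.22 CPM for WT mice and 5.49 ± 0.772 CPM for NTg mice. In edgeR's quasi-likelihood test the log2 difference was -0.32 ± 0.27 for M337V against NTg (SE, 95% interval -0.91 to 0.27, adjusted p = 0.51), 0.16 ± 0.33 for WT against NTg (-0.56 to 0.89, adjusted p = 0.796) and -0.48 ± 0.30 for M337V against WT (-1.14 to 0.18, adjusted p = 0.804). Adjusted p-values here and below are by the Benjamini-Hochberg method over all genes tested, with 0.05 as the threshold. Without M337V 1, 2 and 3, the difference from NTg turned to 0.15 (adjusted p = 0.776). Without NTg 4 the sum differed from NTg by -0.42 in M337V (adjusted p = 0.487) and by 0.06 in WT (adjusted p = 0.944). The single genes then gave -0.52 in M337V and -0.19 in WT for Hspa1a, and -0.25 in M337V and 0.43 in WT for Hspa1b. Hspa1b made up 31.5% to 43.2% of the pair's counts in the M337V libraries, 44.6% and 45.8% in WT and 26.9% to 42.6% in NTg, and the exact binomial intervals, which cover counting error only, were as wide as 18.6% to 47.6% in M337V 1, where the pair had 44 counts.

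Hspa8 (ENSMUSG00000015656, chromosome 9, 40800984 to 40810087) encodes HSC70, the constitutive HSP70 that folds new proteins and uncoats clathrin vesicles in neurons. Its levels were 1446, 1527, 1552, 1139 and 1334 CPM in M337V 1, 2, 3, 7 and 9, 1158 and 1694 CPM in WT 8 and 10, and 1360, 1593 and 1562 CPM in NTg 4, 5 and 6. The WT pair held both the second lowest and the highest library of the 10, and no group stood apart. The log2 difference was -0.10 ± 0.12 for M337V against NTg (adjusted p = 0.647), and the 95% interval, as a fold, was 0.771 to 1.12. For WT against NTg it was -0.08 ± 0.16 (adjusted p = 0.794), and for M337V against WT -0.03 ± 0.14 (adjusted p = 0.98). Without NTg 4 every M337V library lay below both NTg libraries, with a log2 difference of -0.17 (adjusted p = 0.554), and WT gave -0.14 (adjusted p = 0.684).

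Hsph1 (ENSMUSG00000029657, chromosome 5, 149614287 to 149636376) encodes HSP105, an HSP110 protein that resets HSP70 by nucleotide exchange. It stood at 282, 276, 319, 263 and 327 CPM in M337V 1, 2, 3, 7 and 9, at 317 and 315 CPM in WT 8 and 10, and at 273, 288 and 279 CPM in NTg 4, 5 and 6. Both WT libraries lay above all 3 NTg libraries, whereas the M337V libraries reached both below and above NTg. WT against NTg gave a log2 difference of 0.18 ± 0.09 (95% interval -0.01 to 0.36, adjusted p = 0.231). M337V against NTg gave 0.07 ± 0.07 (adjusted p = 0.599) and M337V against WT -0.11 ± 0.08 (adjusted p = 0.83). Without NTg 4 the differences from NTg were 0.06 in M337V (adjusted p = 0.761) and 0.16 in WT (adjusted p = 0.38).

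Dnajb1 (ENSMUSG00000005483, chromosome 8, 83608193 to 83612653) encodes HSP40, the J-domain partner that delivers clients to inducible HSP70. It had 38.3, 38.7, 35.4, 42.1 and 49.0 CPM in M337V 1, 2, 3, 7 and 9, 39.6 and 54.3 CPM in WT 8 and 10, and 37.5, 45.9 and 49.8 CPM in NTg 4, 5 and 6. As with the Hspa1 pair, M337V 1, 2 and 3 were low, and NTg 4 and WT 8 were within or just above their range. The log2 differences were -0.13 ± 0.13 for M337V against NTg (adjusted p = 0.583), 0.08 ± 0.16 for WT against NTg (adjusted p = 0.79) and -0.21 ± 0.15 for M337V against WT (adjusted p = 0.827). Leaving out NTg 4 gave -0.23 in M337V (adjusted p = 0.38) and -0.02 in WT (adjusted p = 0.96) against NTg.

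Bag3 (ENSMUSG00000030847, chromosome 7, 128523616 to 128546981) encodes an HSP70 cochaperone that works with the small heat shock protein HSPB8 to hand misfolded proteins to autophagy. Its levels were 31.5, 32.7, 37.0, 36.1 and 35.7 CPM in M337V 1, 2, 3, 7 and 9, 42.2 and 41.9 CPM in WT 8 and 10, and 38.7, 40.8 and 36.1 CPM in NTg 4, 5 and 6. All M337V libraries lay below both WT libraries, and among M337V and NTg the ranges met between M337V 3 and NTg 6. M337V against WT gave a log2 difference of -0.28 ± 0.07, a fold of 0.822 (95% interval 0.734 to 0.921); the unadjusted p was 0.00279 and the adjusted p = 0.625, which missed the threshold. M337V against NTg gave -0.16 ± 0.07 (adjusted p = 0.173; -0.15 and 0.346 without NTg 4) and -0.01 (adjusted p = 0.933) after each library's trend over GC content and transcript length was removed. WT against NTg gave 0.13 ± 0.08 (adjusted p = 0.364, or 0.14 and 0.452 without NTg 4). It became 0.33 (adjusted p = 0.0459) after removal of the same trends, a setting in which 901 of 15149 genes passed. Hspb8, the partner of BAG3, averaged 47.0 ± 3.37 CPM over M337V mice, 57.0 ± 1.13 CPM over WT mice and 45.0 ± 5.17 CPM over NTg mice, with adjusted p = 0.637 for M337V against WT and 0.0585 for WT against NTg.

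Hspb1 (ENSMUSG00000004951, chromosome 5, 135887919 to 135889563) encodes HSP25, the mouse counterpart of human HSP27, a small heat shock protein found in motor neurons and in vessel walls. Its levels were 8.95, 9.12, 15.7, 13.6 and 13.3 CPM in M337V 1, 2, 3, 7 and 9, 13.8 and 12.7 CPM in WT 8 and 10, and 11.7, 13.01 and 11.97 CPM in NTg 4, 5 and 6. The M337V libraries held both the 2 lowest and the highest level of the whole series, with a coefficient of variation of 24.5%, against 5.79% in NTg. The log2 difference was -0.01 ± 0.17 for M337V against NTg (95% interval -0.38 to 0.36, adjusted p = 0.983), 0.11 ± 0.21 for WT against NTg (adjusted p = 0.773) and -0.12 ± 0.19 for M337V against WT (adjusted p = 0.925). Leaving out NTg 4 gave -0.03 in M337V (adjusted p = 0.948) and 0.09 in WT (adjusted p = 0.865) against NTg. The 6 motor neuron markers summed to 204, 227, 368, 213 and 280 CPM in M337V 1, 2, 3, 7 and 9, to 327 and 351 CPM in WT 8 and 10, and to 233, 241 and 270 CPM in NTg 4, 5 and 6. The 6 Schwann cell and nerve root markers summed to 304, 457, 1687, 691 and 856 CPM in the same M337V libraries, to 197 and 390 CPM in WT 8 and 10, and to 2321, 682 and 543 CPM in NTg 4, 5 and 6. M337V 3 was highest among M337V in both sums and in Hspb1, and lowest among M337V in the lumbosacral Hox sum, at 33.8 CPM. M337V 7 had the second lowest motor neuron sum with 13.6 CPM of Hspb1, and NTg 4 had the highest Schwann cell sum with 11.7 CPM of Hspb1. The 8 endothelial and mural markers summed to 155, 151, 153, 208 and 213 CPM in M337V 1, 2, 3, 7 and 9. They summed to 192 and 132 CPM in WT 8 and 10, and to 205, 203 and 192 CPM in NTg 4, 5 and 6. The part of these cell types or of the cord level in the level of Hspb1 was not tested. In whole cord, fewer cells of a type and less RNA per cell cannot be told apart.

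Hsp90aa1 (ENSMUSG00000021270, chromosome 12, 110690605 to 110702728) encodes the stress-inducible HSP90 alpha. It stood at 1199, 1341, 1388, 1156 and 1302 CPM in M337V 1, 2, 3, 7 and 9, at 1227 and 1499 CPM in WT 8 and 10, and at 1089, 1169 and 1062 CPM in NTg 4, 5 and 6. Every library labelled M337V or WT, other than M337V 7, lay above every library labelled NTg, and M337V 7 lay just under NTg 5. NTg 4, which held human TARDBP counts like those libraries, was at 1089 CPM, below all of them. It averaged 1277 ± 97.3 CPM over M337V mice (SD, n = 5), 1363 ± 192 CPM over WT mice (SD, n = 2) and 1107 ± 55.9 CPM over NTg mice (SD, n = 3). The fold was 1.15 for M337V against NTg (95% interval 1.03 to 1.30, unadjusted p = 0.0217, adjusted p = 0.131) and 1.23 for WT against NTg (1.06 to 1.43, unadjusted p = 0.00922, adjusted p = 0.0829), so neither passed the threshold over all genes in edgeR. The WT difference did pass in DESeq2, with a log2 difference of 0.31 (adjusted p = 0.0163), as did 1720 of all 15191 tested genes. The M337V difference did not pass in DESeq2 (adjusted p = 0.0508). Without NTg 4 the edgeR log2 differences were 0.20 (adjusted p = 0.265) for M337V and 0.30 (adjusted p = 0.168) for WT against NTg, and the WT difference was 0.44 (adjusted p = 0.0538) without WT 8 but 0.15 (adjusted p = 0.461) without WT 10. The 5 oligodendrocyte markers also stood higher in every library labelled M337V or WT than in every library labelled NTg. They summed to 28978 to 35878 CPM in M337V, 31432 and 35201 CPM in WT and 21524 to 25670 CPM in NTg. Oligodendrocytes were not alone in this, as the summed microglia markers were likewise higher in every M337V and WT library. The summed neutrophil markers separated the labels the other way, lower in every M337V and WT library than in every NTg library. The part of any of these cell types in the difference of Hsp90aa1 was not tested. Counts of Hspa8 were 0.985 to 1.21 times those of Hsp90aa1 in M337V and 0.944 and 1.13 times in WT. In NTg they were 1.25 to 1.47 times, so that all libraries labelled NTg had the higher ratio. The lowest of these was NTg 4 at 1.25, beside 1.21 in M337V 1. How often ratios of other genes separate the groups was not tested. Of single genes, 18.1% did not overlap in M337V against NTg and 41.7% in WT against NTg.

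Hspd1 (ENSMUSG00000025980, chromosome 1, 55077835 to 55088243) and Hspe1 (ENSMUSG00000073676, chromosome 1, 55088132 to 55091307) encode HSP60 and HSP10, the barrel and the lid of the mitochondrial chaperonin, and their annotated 5′ ends overlap on opposite strands beside the shared element shown above. Hspd1 had 203, 208, 228, 203 and 231 CPM in M337V 1, 2, 3, 7 and 9, 207 and 228 CPM in WT 8 and 10, and 194, 219 and 202 CPM in NTg 4, 5 and 6. Hspe1 had 54.7, 57.8, 56.2, 45.6 and 56.1 CPM in the same M337V libraries, 52.2 and 58.4 CPM in WT 8 and 10, and 50.1, 54.3 and 48.7 CPM in NTg 4, 5 and 6. The groups overlapped for both genes, and Hspd1 had the narrowest spread of the 10 members, 1.19-fold between its highest and lowest library. Counts of Hspd1 were 3.60 to 4.46 times those of Hspe1 in M337V, 3.91 and 3.96 times in WT, and 3.88 to 4.15 times in NTg; the highest ratio was in M337V 7, the library with the least Hspe1. For M337V against NTg the 95% interval of the fold was 0.952 to 1.15 in Hspd1 (adjusted p = 0.561) and 0.942 to 1.19 in Hspe1 (adjusted p = 0.545). Without NTg 4 the log2 differences from NTg were 0.03 in M337V and 0.05 in WT for Hspd1, and 0.08 in M337V and 0.11 in WT for Hspe1, with adjusted p-values from 0.616 to 0.838. The kit kept the strand of the RNA, but whether counting used it is not stated in the labels, so reads in the overlap of the 2 genes cannot be assigned with certainty.

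**Figure D2:**
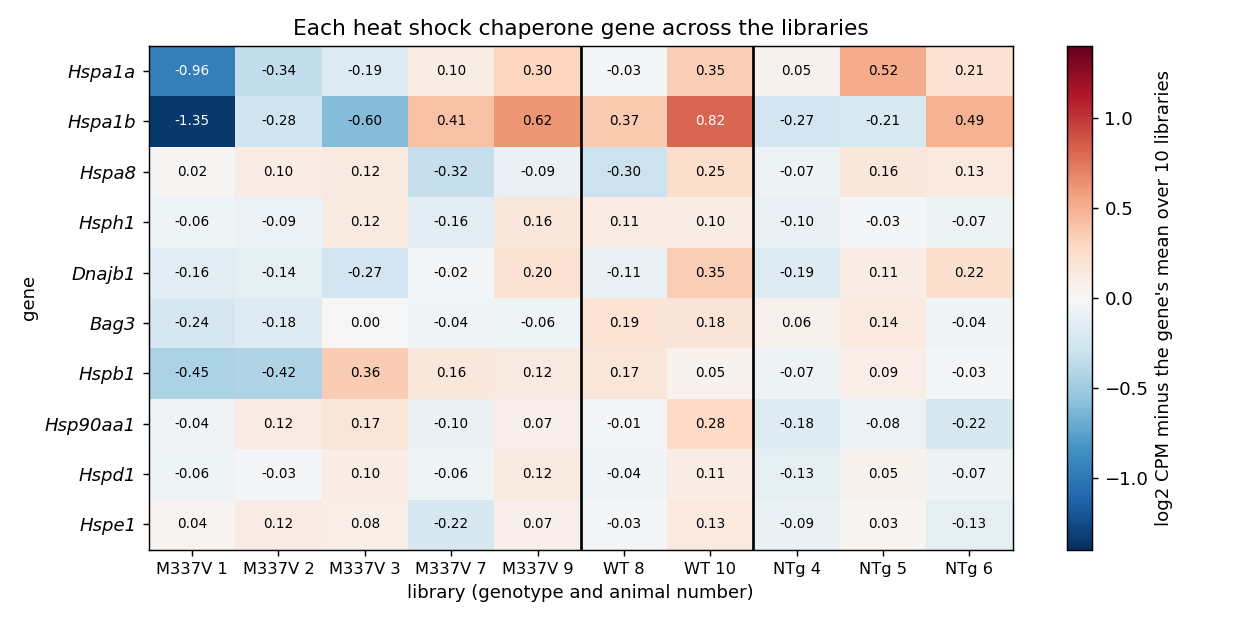
The log2 CPM of each of the 10 genes (rows) in each library (columns, M337V, WT and NTg divided by black lines) minus the gene's mean over all 10 libraries; red is above and blue below that mean. The widest differences are in Hspa1a and Hspa1b, from -1.35 for Hspa1b in M337V 1 to 0.82 for Hspa1b in WT 10.

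The levels varied among animals of 1 genotype. WT 10 was above the mean in 10 of 10 genes and held the highest level of 5 of them, whereas M337V 1 was above the mean in 2 genes and held the lowest level of 4. M337V 7 had the lowest level of 3 further genes (Hspa8, Hsph1 and Hspe1) while its Hspa1a and Hspa1b were above their means. Between its highest and lowest library Hspa1b differed 4.49-fold and Hspa1a 2.79-fold, against 1.75-fold in Hspb1, 1.54-fold in Dnajb1, 1.49-fold in Hspa8 and 1.41-fold or less in the other 5 genes. The median coefficient of variation over the 10 libraries was 12.01% among the 10 genes and 9.67% among all 15191 tested.

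The pattern of Hspa1a and Hspa1b summed was compared with that of every other tested gene after both were put on a scale of standard deviations over the 10 libraries. The 5 genes with the smallest mean absolute difference were Zfp758 (0.268 SD), Rchy1 (0.277), Rsg1 (0.283), Nfatc3 (0.302) and Fos (0.313 SD), against a median of 1.09 SD over all genes. Fos, an immediate early gene, had 7.01, 8.80, 6.90, 14.1 and 17.8 CPM in M337V 1, 2, 3, 7 and 9, 14.9 and 19.9 CPM in WT 8 and 10, and 11.8, 18.2 and 20.5 CPM in NTg 4, 5 and 6. All 5 were chosen from the tested genes for their likeness to the Hspa1 sum in these libraries. Their small differences beside the median, and the low values of Fos in M337V 1, 2 and 3, follow from that choice. Over all 20 immediate early genes listed, the median log2 deviation from the mean was -0.41, -0.14 and -0.16 in M337V 1, 2 and 3, 0.13 and 0.02 in M337V 7 and 9, 0.04 and -0.09 in WT 8 and 10, and 0.10, 0.28 and 0.28 in NTg 4, 5 and 6. By their library names M337V 1, 2 and 3 are TDP_10, TDP_11 and TDP_12, apart from the others at TDP_2 to TDP_8, and whether that order marks a shared day of dissection was not tested.

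In the comparison of M337V with NTg, which asks what the mutant transgene changed, 0 of the 10 genes passed the threshold in edgeR, where 4.29% of all tested genes did (651 of 15191). At an unadjusted p below 0.05 there were 2 of 10 genes, Hsp90aa1 higher and Bag3 lower, against 24.5% of all tested genes. DESeq2 and limma-voom also called 0 of 10, where they called 1499 and 1315 of all 15191 tested genes. The groups did not overlap in 0 of the 10 genes, against 18.1% of all tested genes. The log2 difference was above 0 in 4 of 10 genes and in 47.2% of all tested genes, with a median of -0.06 over the 10 genes and -0.01 over all genes tested. The 95% intervals of 8 of the 10 genes lay within 1.5-fold in both directions, and those of Hspa1a (fold 0.514 to 1.08) and Hspa1b (0.517 to 1.63) reached beyond it. Without NTg 4, 0 of 10 genes passed and 1.3% of all tested genes did, Hspa8 alone did not overlap (lower in M337V, as in 13.6% of all tested genes), the median over the 10 genes was -0.09, and 8 of the 10 intervals lay within 1.5-fold.

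The normal transgene was set against NTg in the comparison of WT with NTg. In edgeR 0 of 10 genes passed, against 5.64% of all tested genes. At an unadjusted p below 0.05 there was 1 gene, Hsp90aa1, against 25.3% of all tested genes. DESeq2 called 1 of the 10 (Hsp90aa1) and 1720 of all 15191 tested genes. With limma-voom 0 of the 10 and 215 of all tested genes were called. The WT libraries did not overlap NTg in 3 genes, all higher (Hsp90aa1, Hsph1 and Bag3), against 19.6% of tested genes that were higher without overlap and 41.7% without overlap in either direction, and 3 of 10 genes lies between these shares. The log2 difference was above 0 in 8 of 10 genes, against 46.7% of all tested genes. The median log2 difference was 0.11 over the 10 genes and -0.02 over all genes tested, and 8 of the 10 intervals again lay within 1.5-fold. Without NTg 4, 0 of 10 genes passed and 1.87% of all tested genes did, the same 3 genes did not overlap (24.3% of all tested genes were higher without overlap), the log2 difference was above 0 in 7 of 10 genes with a median of 0.10, and 7 of the 10 intervals lay within 1.5-fold. Both comparisons used the same 3 NTg libraries.

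The comparison of M337V with WT asks what the mutation added to the transgene. In edgeR 0 of 10 genes passed, as did 0% of all tested genes, while 6.66% of all genes had an unadjusted p below 0.05. DESeq2 called 0 of the 10 and 30 of all 15191 tested genes, and limma-voom called 0 of either. Bag3 was the 1 member with an unadjusted p below 0.05 and the 1 member without overlap between the groups, lower in M337V; of all tested genes 4.65% were lower without overlap and 9.50% did not overlap in either direction. All 10 log2 differences were below 0, where 50.2% of all tested genes were above it, from -0.69 in Hspa1b to -0.02 in Hspd1, with a median of -0.12, and the median over all tested genes was 0.00. The differences of Hspa8, Dnajb1, Hsp90aa1, Hspd1 and Hspe1 turned positive without WT 10, at 0.27, 0.04, 0.06, 0.05 and 0.05.

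**Figure D3:**
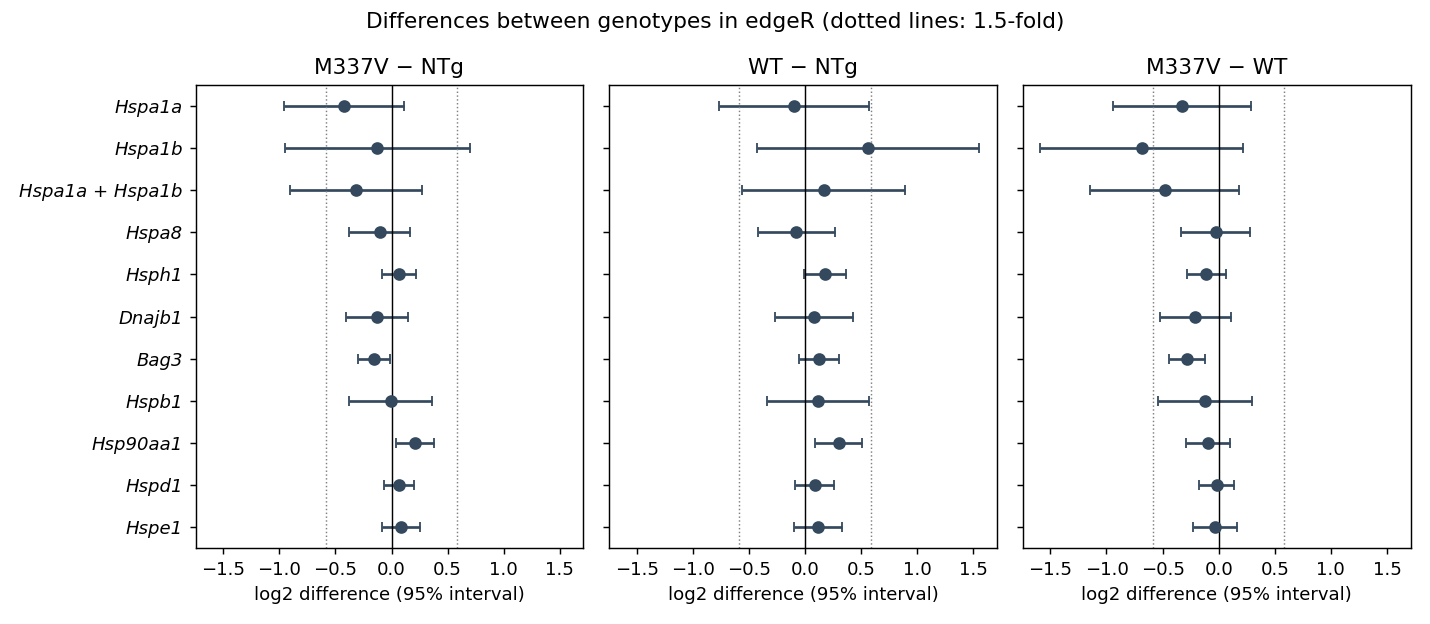
Log2 difference (points) with its 95% interval (bars) for the 10 genes and for Hspa1a and Hspa1b summed, in M337V against NTg, WT against NTg and M337V against WT; dotted lines mark 1.5-fold. Most intervals include 0; the exceptions are Hsp90aa1 in the first 2 panels and Bag3 in the outer panels, whose adjusted p-values all missed 0.05.

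The wider folding machinery was described by 11 lists with 105 genes, of which 102 were tested. In M337V against NTg 2 of the 102 rose and 1 fell, where 2.67% of all tested genes rose and 1.61% fell, and their median log2 difference was 0.00. Chordc1, which encodes an HSP90 cochaperone, averaged 107 ± 10.5 CPM in M337V and 83.8 ± 5.14 CPM in NTg, a log2 difference of 0.36 ± 0.08 (adjusted p = 0.0409; 0.42 and 0.0589 without NTg 4). Ptges3, which encodes the HSP90 cochaperone p23, averaged 170 ± 9.12 CPM in M337V and 145 ± 9.86 CPM in NTg (0.23 ± 0.06, adjusted p = 0.0475; 0.29 and 0.0492 without NTg 4). They were the 2 of 15 genes of the HSP90 list that passed. Dnajb5, a J-domain gene, averaged 31.4 ± 1.52 CPM in M337V and 37.3 ± 2.03 CPM in NTg (-0.25 ± 0.06, adjusted p = 0.0458; -0.22 and 0.141 without NTg 4), and it was the 1 of 21 other J-domain genes that passed. Without M337V 2, M337V 3, M337V 9, NTg 5 or NTg 6, 0 of the 102 genes passed. After removal of GC and length trends 2 of the 102 passed, Dnajb2 and Bag1, and Chordc1, Ptges3 and Dnajb5 did not.

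In WT against NTg 2 of the 102 folding genes rose and 1 fell, where 3.59% of all tested genes rose and 2.05% fell, and their median log2 difference was 0.03. Hspa4l, which encodes an HSP110 protein related to HSP105, stood at 515 and 516 CPM in WT 8 and 10 and at 406, 406 and 412 CPM in NTg 4, 5 and 6, a log2 difference of 0.34 ± 0.07 (adjusted p = 0.0198; 0.34 and 0.0515 without NTg 4). In M337V it had 438 to 513 CPM, and the difference from NTg was 0.19 ± 0.05 (adjusted p = 0.0626). Dnajb14, which encodes a J-domain protein of the endoplasmic reticulum membrane, rose by 0.29 ± 0.06 (adjusted p = 0.0286; 0.0588 without NTg 4), and Dnajb5 fell (-0.30 ± 0.08, adjusted p = 0.0484; 0.13 without NTg 4). Without NTg 4 or NTg 6, 0 of the 102 genes passed in WT against NTg. After removal of GC and length trends Dnajb14 passed, with Dnajb2, Bag1 and Hspb8, and Hspa4l and Dnajb5 did not. In M337V against WT 0 of the 102 genes passed in edgeR, DESeq2 or limma-voom, and 3 had an unadjusted p below 0.05.

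By role, the HSF family factors had a median log2 difference of 0.05 in M337V against NTg and 0.03 in WT against NTg, with 0 of 5 genes past the threshold in either. Hsf1 itself, the master regulator, stood at 24.0 ± 1.83 CPM in M337V and 25.9 ± 1.59 CPM in NTg (adjusted p = 0.388). The 10 other HSP70 and HSP110 genes tested (medians -0.09 and -0.03) had 0 past the threshold in M337V and 1, Hspa4l, in WT against NTg. The 5 other small heat shock protein genes tested had medians of -0.15 and 0.16, with 0 past the threshold. The 9 subunits of the cytosolic TRiC chaperonin (medians 0.00 and 0.02), the 12 mitochondrial folding and protease genes (-0.05 and 0.00), the 14 folding proteins of the endoplasmic reticulum (0.10 and 0.16), the 9 HSP70 cochaperones (-0.05 and 0.00) and the 8 autophagy partners of BAG3 (-0.08 and -0.06) had 0 genes past the threshold in either comparison. Of 17 further genes known to be induced by HSF1, 1 passed in each, Chordc1 in M337V and Hspa4l in WT against NTg. The immediate early list had a median of -0.35 in M337V against NTg, where Dusp1 (-0.47 ± 0.10, adjusted p = 0.0347) and Klf2 (-0.99 ± 0.24, adjusted p = 0.0438) fell, and -0.24 in WT against NTg, where 0 of 20 passed. Without NTg 4 Dusp1 gave -0.57 (adjusted p = 0.0404) and Klf2 -1.05 (adjusted p = 0.0777). Neither gene passed without M337V 1 (adjusted p = 0.057 for Dusp1 and 0.0639 for Klf2), M337V 2 (0.0836 and 0.0975), M337V 3 (0.0612 and 0.0906), NTg 5 (0.0885 and 0.092) or NTg 6 (0.182 and 0.192). Both also missed the threshold without M337V 1, 2 and 3 (0.302 and 0.26) and after removal of GC and length trends (0.0859 and 0.0771).

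**Figure D4:**
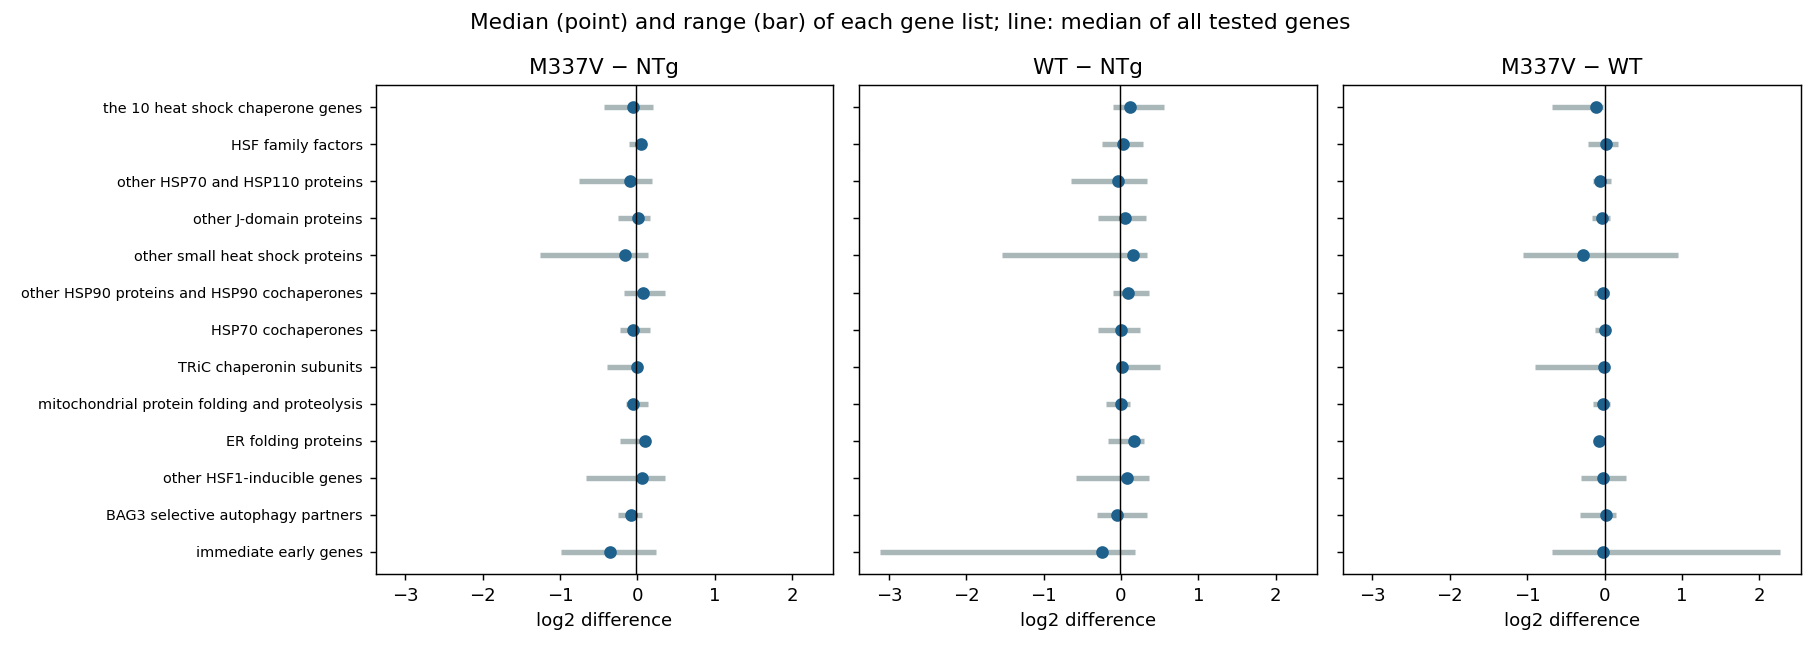
Median (points) and range (bars) of the log2 difference over the tested members of each gene list, in M337V against NTg, WT against NTg and M337V against WT; the vertical line is the median of all 15191 tested genes. Medians of the chaperone and cochaperone lists run from -0.28, in the other small heat shock proteins in M337V against WT, to 0.16. The immediate early genes lie lowest in M337V against NTg, at -0.35.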

How the data were processed

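The deposited table holds whole-number read counts per Ensembl gene and library, without normalization, from stranded TruSeq polyA libraries read as pairs over 100 cycles, per the labels' protocols. The submitters' processing notes name STAR 2.4.2a, featureCounts, Subread 1.4.6, Salmon 0.8.2 and DESeq2 1.14.1 without roles (genome build and annotation not given in the sources used here). Gene names and exon lengths came from GENCODE (GRCm38), which named 21774 of 22024 identifiers.

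Genes were filtered with filterByExpr (minimum count 10, minimum total 15), libraries scaled by TMM, and genotypes compared by edgeR 4.0.16's quasi-likelihood test (R 4.3.3) with 1 mean per group over all 10 libraries; 3 contrasts, Benjamini-Hochberg over 15191 genes, threshold 0.05. SE is the log2 difference divided by the root of F, and 95% intervals use the t distribution with the test's degrees of freedom; both, and the count intervals, rest on the number of animals or on counting error alone. CPM are scaled counts. Hspa1a and Hspa1b were also added before fitting. Genes outside the 10 were named by rule: per list, up to 3 past the threshold by smallest p or else the 1 with the smallest p, and the 5 nearest patterns. The members and lists were chosen with earlier results of these data known. Alternatives were RLE scaling, no filter, a mean of 1 CPM in every group, the compared groups alone, limma-voom (limma 3.58.1), DESeq2 1.42.0, single libraries left out, both NTg 4 and WT 8 or M337V 1, 2 and 3 left out, and removal of GC and length trends (splines with 5 degrees of freedom on log2 CPM, prior count 2, as offsets).

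The same fit was also run on simulated counts with known changes in 200 genes. In M337V against NTg, WT against NTg and M337V against WT it recovered 67%, 53% and 52% of the 1.5-fold changes. For 2-fold changes it recovered 81%, 74% and 78%. Of its 161, 133 and 139 calls, 13, 6 and 9 were false. The simulated libraries were drawn independently, with no shared litter, run or cord level and no library against its label. The 200 genes were picked at random from all tested genes. Recovery at counts as low as those of Hspa1a and Hspa1b was not tested apart.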

Additional observations from a re-analysis of the deposited data

Results flagged for a closer look

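Hspe1 in M337V 7 lay far from the other 4 M337V libraries: it stood at 45.6 CPM, against 54.7 to 57.8 CPM in the others, and its gap to the nearest of them was 0.746 of the group's range, above the 95% critical value of 0.71 for 5 samples (Dixon). Of 11 groups looked at this way (each gene and the Hspa1 sum in M337V) 1 was flagged, where chance flags about 1 in 20. Without M337V 7 the log2 difference of Hspe1 between M337V and WT was 0.02, against -0.03 with it. Between M337V and NTg it was 0.15 in edgeR without M337V 7 (unadjusted p below 0.05, adjusted p = 0.16). With M337V 7 it was 0.085 (adjusted p = 0.545).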

How the results depend on the processing

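No paired analysis was possible because M337V, WT and NTg share no animal number. The 30 differences of the 10 genes were recomputed under 19 alternatives, 10 of them without a single library. Of 570 values, 542 kept their direction and side of the threshold, 26 turned and 2 passed it. Some could hardly change, since leaving out a library of a group not compared barely moves a difference. Hspa1a in M337V against NTg stayed at -0.43 without WT 8 or WT 10. In M337V against WT 0 of 15191 genes passed in edgeR, so the side of the threshold says little there. The cause of the turns was not tested. The members called in WT against NTg became 1 in DESeq2 (Hsp90aa1), which called 1720 of 15191 genes. After removal of GC and length trends 1 was called (Bag3), with 901 of 15149 genes. Otherwise 0 members were called in each contrast.

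In M337V against NTg, leaving out M337V 1, 2 and 3 turned the Hspa1 sum to 0.15, Hspa1b to 0.48, Dnajb1 to 0.044 and Hspb1 to 0.15, and trend removal turned Hspa1b to 0.024, Hspb1 to 0.12 and Hsf1 to 0.015. Single libraries left out gave -0.36 to 0.16 for Hspa1b (above 0 without M337V 1 or NTg 6) and -0.11 to 0.092 for Hspb1 (above 0 without M337V 1, M337V 2 or NTg 5).

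In WT against NTg, trend removal turned Hspa1a to 0.12 and Htra2 to 0.029, and leaving out NTg 4 and WT 8 turned Hspa8 to 0.11. Single libraries left out gave -0.055 (without WT 10) to 0.35 for the Hspa1 sum, -0.30 to 0.076 for Hspa1a (above 0 without WT 8 or NTg 5), -0.38 to 0.17 for Hspa8 (above 0 without WT 8), -0.17 to 0.29 for Dnajb1 (below 0 without WT 10 or NTg 4) and -0.077 to 0.23 for Cct8 (below 0 without WT 10).

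In M337V against WT, leaving out M337V 1, 2 and 3 turned Hspa1a to 0.028 and Hspb1 to 0.024. Single libraries left out gave -0.27 to 0.27 for Hspa8 and -0.11 to 0.053 for Hspe1 (each above 0 without M337V 7 or WT 10), and, above 0 without WT 10, -0.42 to 0.041 for Dnajb1, -0.23 to 0.058 for Hsp90aa1, -0.089 to 0.055 for Hspd1 and -0.18 to 0.031 for St13.

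Folding genes called in M337V against NTg were 3 of 102, against 0 without M337V 2, M337V 3, M337V 9, NTg 5, NTg 6 or M337V 1, 2 and 3, 1 without NTg 4, 5 in the compared groups alone, 6 in limma-voom and 8 in DESeq2. In WT against NTg they were 3, against 15 in DESeq2, 5 without M337V 1, M337V 3 or M337V 1, 2 and 3, 1 in limma-voom, the compared groups alone or without WT 8, and 0 without WT 10, NTg 4, NTg 6, or NTg 4 and WT 8. Over all genes, 651 calls in M337V against NTg became 1499 in DESeq2, 1315 in limma-voom, 1057 in the compared groups alone, 3 without M337V 1, 2 and 3, and 2 (NTg 6) to 1016 (WT 10) without a single library; 857 calls in WT against NTg became 1720, 215, 258, 142 without NTg 4 and WT 8, and 44 (NTg 6) to 1086 (M337V 3). Trend removal moved the split of calls from 406 higher and 245 lower to 431 and 89 in M337V against NTg, and from 545 and 312 to 751 and 150 in WT against NTg. The folding genes called after it were 2 in M337V against NTg (Dnajb2 and Bag1). In WT against NTg they were 4 (Dnajb2, Bag1, Hspb8 and Dnajb14). With 44 to 144 counts of the Hspa1 pair per library, the 95% interval of its fold in M337V against NTg was 0.534 to 1.21.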
